A study of Mus musculus with 3 samples.

Results

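The bone morphogenetic protein (BMP) pathway was followed through skin wounds by 10 genes chosen by name: the ligands Bmp2, Bmp4, Bmp6 and Bmp7, the receptors Bmpr1a and Bmpr2, the secreted antagonist Nog, and the target genes Id1, Id2 and Id3. All 10 were found among the 19070 genes of the probe set. Their unique molecular identifiers (UMIs, the counted transcript copies) were summed by library and by cell class, and each class was defined by marker genes. Levels are in CPM, the UMIs of a gene per 1000000 UMIs of its class in that library. Levels of different genes are not compared, because the number of probes per gene differs.

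The wounds were full-thickness, 5 mm wide and splinted, on the backs of C57BL/6J females on postnatal day 50, and were taken 5 days later with 2 mm of surrounding skin. In the AN-GelMA group, wounds received 20 μL of gelatin methacryloyl hydrogel (GelMA) loaded with apoptotic neutrophils, set in place with UV light for 1 min. In the GelMA group, the same hydrogel was given without neutrophils. The untreated group was wounded and splinted only. Each group was 1 library of fixed, dissociated cells read with a probe-based assay (10x Flex), with no stated number of mice behind it. No difference between groups could therefore be tested: intervals below are 95% intervals for counting error only, and "higher" and "lower" mean a ratio of at least 1.5-fold.

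BMP ligands bind a pair of receptor types on the cell surface, of which Bmpr1a is a type I and Bmpr2 a type II receptor, and the activated receptors phosphorylate Smad1 and Smad5, which enter the nucleus with Smad4. The Id genes, whose helix-loop-helix proteins lack a DNA-binding domain and hold back differentiation factors, are among their most direct targets. In the hair follicle, BMP signals hold resting stem cells quiescent and, in the growing follicle of the mouse, Bmpr1a is needed for the matrix to form the hair shaft and the inner root sheath. Blood endothelium carries its own BMP receptor pair and is a classic site of Id1 and Id3 transcription.

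After removal of low-quality cells and of the 5% with the highest doublet scores, 9094 AN-GelMA, 10687 GelMA and 5721 untreated cells were kept. The deposited matrices held 14156692 UMIs in AN-GelMA, 21613482 in GelMA and 8945496 in untreated, with medians per cell of 1134 UMIs in AN-GelMA, 1485 in GelMA and 1125 in untreated, and pairs of libraries shared 94 to 135 cell barcodes. The follicle was very unevenly sampled. Hair matrix comprised 80 AN-GelMA, 1321 GelMA and 195 untreated cells. Inner root sheath comprised 5 AN-GelMA, 1122 GelMA and 58 untreated cells, hair shaft 0 AN-GelMA, 278 GelMA and 5 untreated cells, and outer root sheath or bulge 70 AN-GelMA, 1233 GelMA and 114 untreated cells. Dermal papilla cells numbered 10 in AN-GelMA, 68 in GelMA and 25 in untreated. Levels are given only for classes of at least 50 cells in a library, so that hair shaft and papilla have a level in GelMA alone. Of the defining markers, 7 of 7 measured for matrix, 8 of 10 for papilla, 9 of 9 for fibroblasts and 9 of 9 for endothelium reached at least 50 CPM and 4 times the median over classes.

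One property of the GelMA library accompanies every comparison made with it. The summed level of 21 hair marker genes (of matrix, shaft and inner root sheath) lay between 10.8 and 146 CPM in the AN-GelMA classes outside the matrix, between 669 and 2392 in the GelMA classes outside matrix, inner root sheath and shaft, and between 44.9 and 299.9 in the untreated classes outside matrix and inner root sheath. Every class with a value in GelMA and another library, immune cells and endothelium included, was highest in GelMA. In the GelMA macrophages, 20 of the 21 hair markers were detected, at 1120 CPM in sum, against 9 markers at 18.96 in AN-GelMA macrophages and 11 markers at 118.7 in untreated macrophages. Its part in the results was not tested, and a recount, chosen after seeing the data, without the cells of other classes holding any hair marker UMI is given where it bears on a result. The recount removes cells very unevenly. Such cells were 6.01% of AN-GelMA, 87.2% of GelMA and 14.2% of untreated suprabasal cells. In endothelium they were 1.76% in AN-GelMA, 50.1% in GelMA and 4.44% in untreated. The GelMA cells left are thus a selected part of their class.

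**Figure D1:**
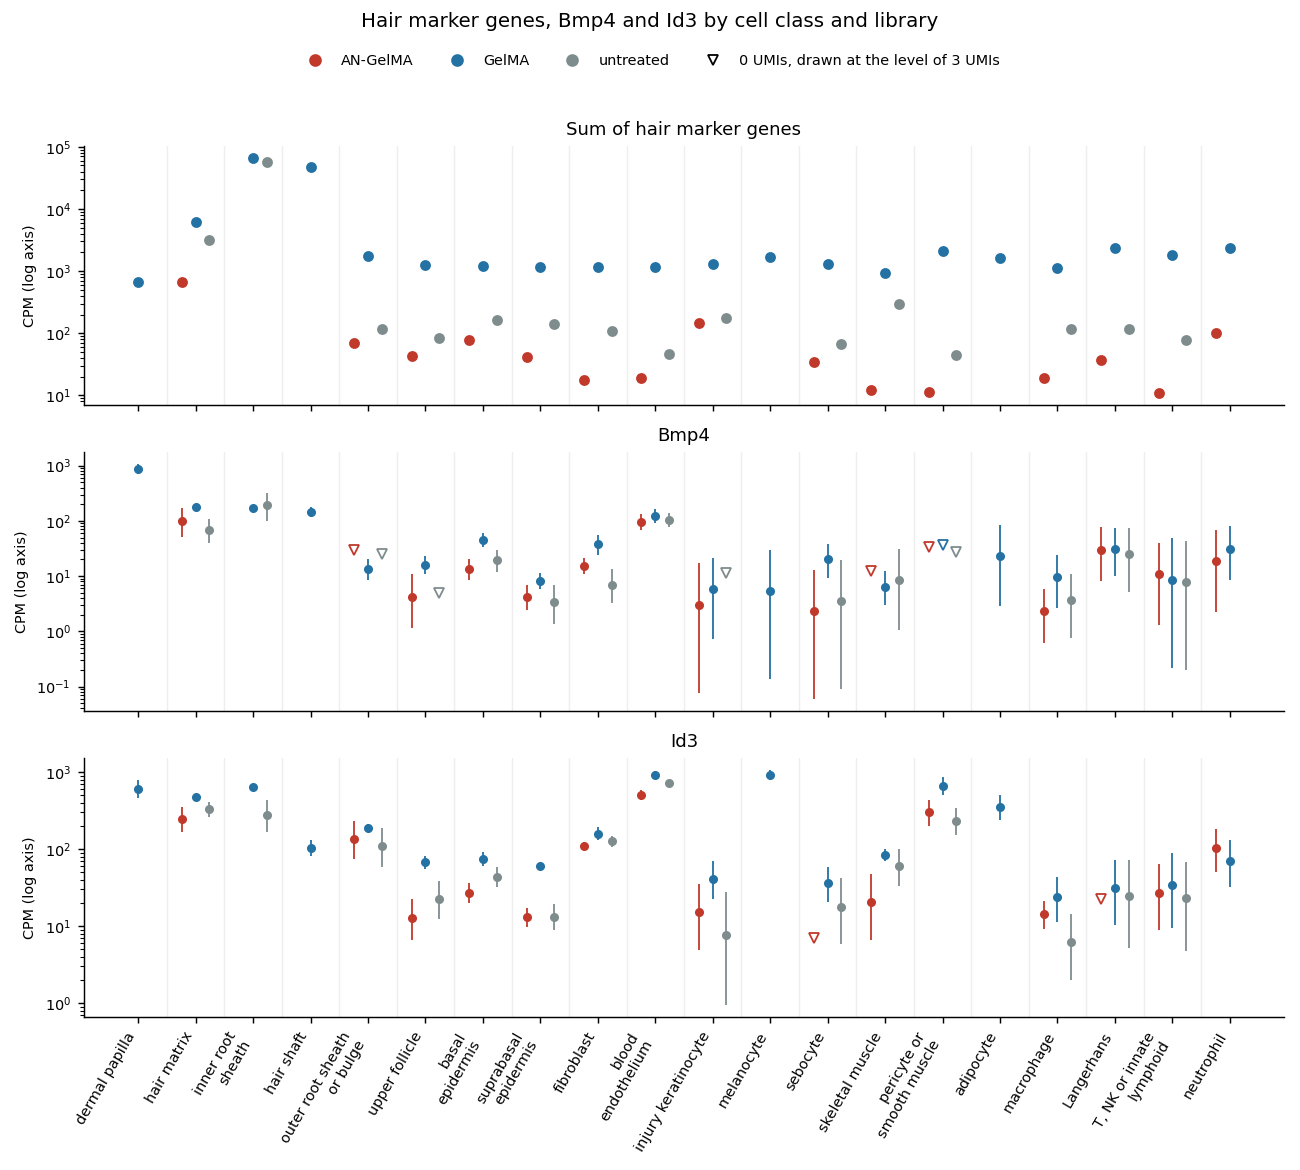
Levels of the summed hair marker genes (top), Bmp4 (middle) and Id3 (bottom) in every class with at least 50 cells, in CPM on a log axis, for AN-GelMA, GelMA and untreated; lines are 95% Poisson intervals and open triangles mark 0 UMIs. In every class with a value in GelMA and another library the hair markers are highest in GelMA. Bmp4 and Id3 differ between classes within a library, with Id3 at 928 CPM in GelMA endothelium and 23.9 in GelMA macrophages. Macrophage Id3 was 14.4 in AN-GelMA and 6.18 in untreated.

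Among the ligands, Bmp4 had the sharpest source. In GelMA, the dermal papilla, the mesenchymal signalling centre at the follicle base, held 82 Bmp4 UMIs or 871 CPM (interval 693 to 1081), with an interval above that of any other class. The 10 papilla cells of AN-GelMA held 15 Bmp4 UMIs and the 25 of untreated held 20, too few cells for a level but not for detection. A Bmp4 UMI was seen in 47.1% of the 68 GelMA papilla cells (exact interval 34.8% to 59.6%) and in 0.662% of the 453 GelMA macrophages (0.137% to 1.92%), which serve as a class not expected to make it. With each cell thinned to 500 UMIs, the shares were 29.4% and 0.662%; before thinning, the median depth was 1331 UMIs in GelMA papilla cells and 749 in GelMA macrophages.

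Bmp4 was also found in the epithelium wrapped around the papilla. In hair matrix, the dividing progenitors of the shaft, it stood at 98.2 CPM in AN-GelMA (12 UMIs), 179 in GelMA (462) and 68.2 in untreated (17). In inner root sheath, the casing that moulds the shaft, it stood at 173 in GelMA and 190 in untreated. Within GelMA matrix, the cells led by the cuticle keratin gene Krt32 and keratin-associated protein genes had 414 CPM of Bmp4. Outside the follicle, Schwann cells stood at 217 CPM in GelMA (13 UMIs, 116 to 371) and 82.1 in untreated (7 UMIs), and blood endothelium at 96.9 in AN-GelMA, 124 in GelMA and 106 in untreated. Endothelial cells led by Selp, an adhesion receptor of venules, held 29 of the 36 UMIs in AN-GelMA, 25 of 49 in GelMA and 32 of 45 in untreated, at 236 CPM in AN-GelMA, 213 in GelMA and 244 in untreated, against 14.4 in AN-GelMA, 29.3 in GelMA and 32.5 in untreated endothelial cells led by Adgrl4 and Dll4. The endothelial levels of the 3 libraries were within each other's intervals. Pericytes or smooth muscle held 0 Bmp4 UMIs in each library; taking 3 UMIs as the limit that a count of 0 allows, here and below, this permits up to 33.7 CPM in AN-GelMA, 36.9 in GelMA and 26.9 in untreated.

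Bmp2 was a ligand of the differentiating hair lineages. In GelMA, hair shaft held 125 Bmp2 UMIs or 189 CPM (interval 157 to 225), and inner root sheath 152 UMIs or 63.8 CPM. Within GelMA inner root sheath the transcript was almost entirely in 1 group of cells: those led by Tchhl1 and Padi1, genes of the late, hardening sheath, carried 148 of the 152 UMIs, at 203 CPM, whereas those led by Krt25 and Krt71 carried 1 UMI and those led by Krt26 and Krt72 carried 3. The GelMA cells led by Krt84, which kept no class name because another class had more markers among their leading genes, had 123 CPM of Bmp2 from 48 UMIs. In hair matrix, Bmp2 stood at 24.6 in AN-GelMA (3 UMIs), 21.7 in GelMA (56) and 52.2 in untreated (13). The papilla held 0 Bmp2 UMIs in each library, which for the GelMA papilla allows up to 31.9 CPM. Bmp4 was thus found on both sides of the boundary between papilla and epithelium of the GelMA follicle, and Bmp2, at this depth, on the epithelial side.

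Bmp6 showed 2 sites. The first was the GelMA hair shaft, at 209.8 CPM from 139 UMIs, and the GelMA papilla, at 181 from 17 UMIs, with overlapping intervals. The second was blood endothelium, at 45.7 in AN-GelMA (17 UMIs), 109 in GelMA (43) and 51.7 in untreated (22). Of the 43 GelMA endothelial UMIs, 26 came from 106 cells led by Cd300lg, Aqp7 and Gpihbp1, genes of capillary endothelium, where Bmp6 reached 313 CPM. That group held only 2 cells in each of the other libraries, so its Bmp6 level could not be set beside theirs. In outer root sheath or bulge, the layer that houses the stem cells, Bmp6 stood at 9.78 in AN-GelMA (1 UMI), 18.0 in GelMA (29) and 50.6 in untreated (6).

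Bmp7 was the broad epithelial ligand, with 5790 UMIs in all barcodes. It was high in upper follicle, the infundibulum and the duct of the sebaceous gland, at 368 CPM in AN-GelMA, 279 in GelMA and 336 in untreated, and in hair matrix, at 278 in AN-GelMA, 193 in GelMA and 361 in untreated. Basal epidermis had 215 in AN-GelMA, 142 in GelMA and 217 in untreated. Suprabasal epidermis had 135 in AN-GelMA, 135 in GelMA and 129 in untreated, the narrowest spread of any ligand in any class. Within it, Bmp7 was lower in the cornified cells: the suprabasal cells led by Gadl1 and Krt1 had 198 CPM in AN-GelMA, 208 in GelMA and 206 in untreated, and those led by the cornified-envelope genes Lce1m and Lce1d had 13.3 in AN-GelMA, 33.7 in GelMA and 12.1 in untreated. Fibroblasts were below epidermis, at 33.7 in AN-GelMA, 28.5 in GelMA and 19.5 in untreated. Neighbours in the order of Bmp7 levels mostly overlapped in their intervals; those that stood clear of the next class were upper follicle in GelMA, fibroblasts in AN-GelMA and sebocytes in untreated.

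**Figure D2:**
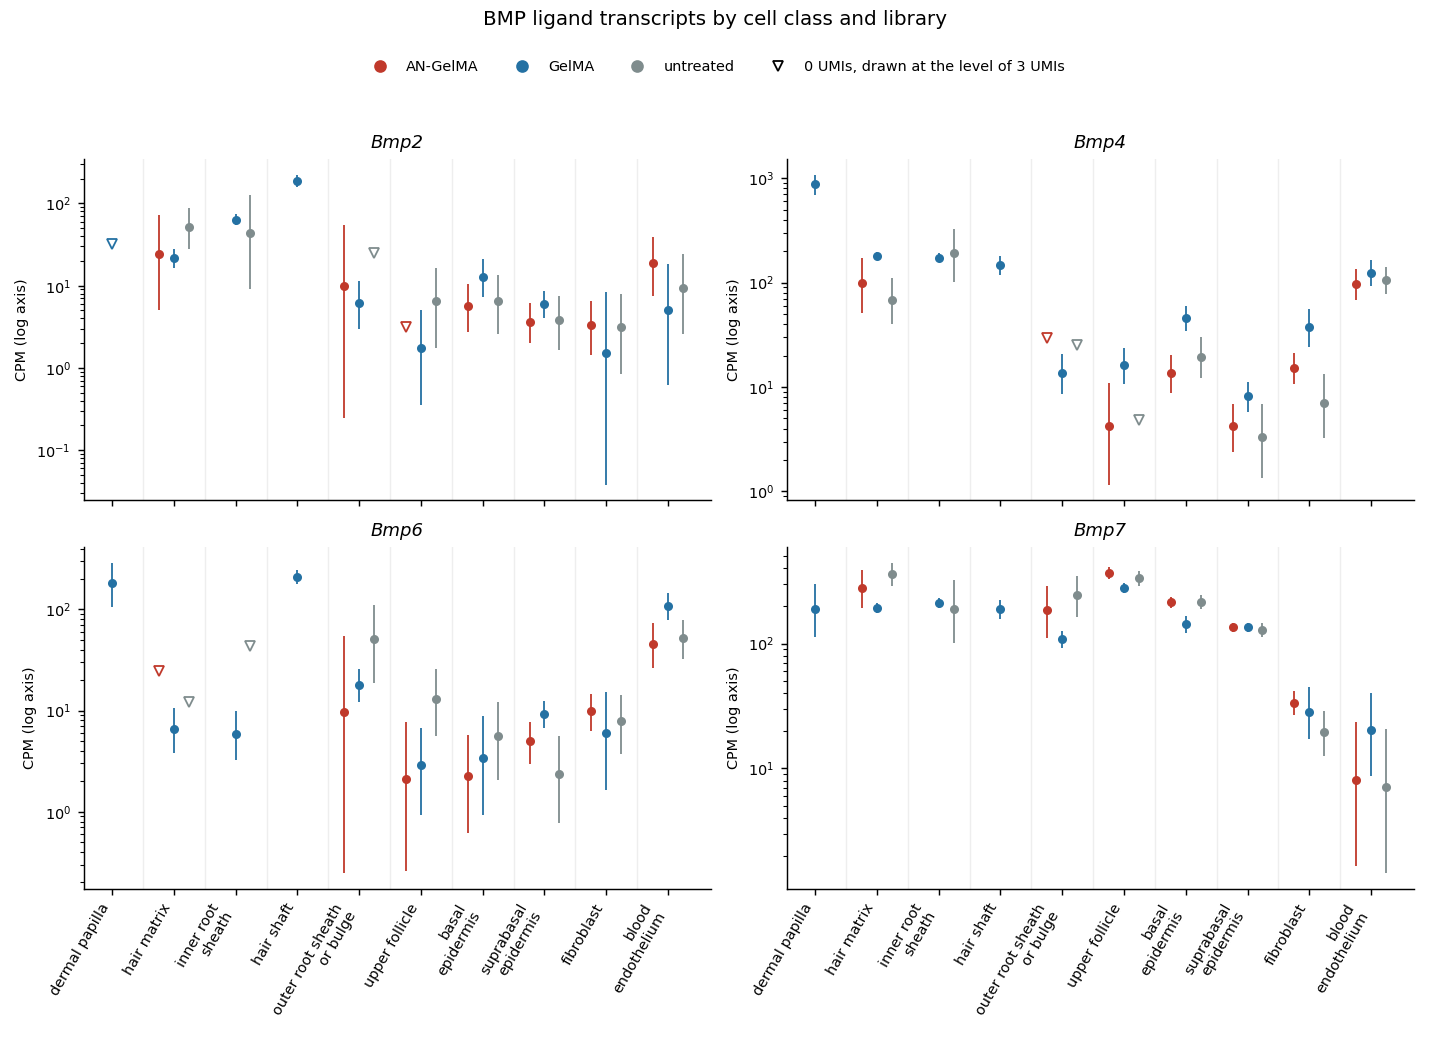
Levels of the 4 BMP ligands in the follicle compartments, epidermis, fibroblasts and blood endothelium, in CPM on a log axis, by library; lines are 95% Poisson intervals and open triangles mark 0 UMIs. Bmp4 peaks at 871 in GelMA dermal papilla, Bmp2 and Bmp6 at 189 and 209.8 in GelMA hair shaft, and Bmp7 is spread over all epithelial classes.

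Noggin (Nog), the extracellular protein that binds BMP ligands and keeps them from their receptors, was barely measured in the skin compartments. It had 101 UMIs in all barcodes of the series, of which 44 were in GelMA skeletal muscle, at 31.6 CPM. Skeletal muscle held 0 Nog UMIs in 166 AN-GelMA cells, which allows up to 12.4 CPM, and 0 in 174 untreated cells, which allows up to 12.9. Against a floor of 3 UMIs per library and class, Nog was at least 2.55-fold lower in AN-GelMA than in GelMA muscle, and at least 2.46-fold higher in GelMA than in untreated muscle. Dermal papilla, hair matrix and upper follicle had 0 Nog UMIs in each library, and the limit for GelMA matrix was 1.16 CPM. For the few GelMA papilla cells the limit was 31.9 CPM, no lower than the GelMA muscle level. A papilla level like that of muscle could therefore have been missed. Fibroblasts held 2 Nog UMIs in AN-GelMA, 3 in GelMA and 4 in untreated, so that no ratio of Nog could be given for any skin class.

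Bmpr1a, the type I receptor, was highest in inner root sheath, at 494 CPM in GelMA and 513 in untreated, above upper follicle at 330 in AN-GelMA, 431 in GelMA and 271 in untreated. Within the GelMA inner root sheath it was 676 in the cells led by Krt26 and Krt72, 539 in those led by Tchhl1 and 385 in those led by Krt25. Hair matrix, outer root sheath or bulge, basal and suprabasal epidermis, sebocytes and injury keratinocytes lay between 182 and 336 in every library, and fibroblasts between 134 and 152. Endothelium was far lower, at 13.5 in AN-GelMA (5 UMIs), 35.5 in GelMA (14) and 9.39 in untreated (4). The GelMA papilla had 5 Bmpr1a UMIs, or 53.1 CPM (17.2 to 124).

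Bmpr2, the type II receptor, was measured in epithelium and endothelium alike. Endothelium ranked first in AN-GelMA, at 151 CPM, and in untreated, at 148, and held 114 in GelMA. Suprabasal epidermis had 115 in AN-GelMA, 95.1 in GelMA and 110.3 in untreated, and upper follicle had 95.6 in AN-GelMA, 111 in GelMA and 112 in untreated. Over the 3 libraries, the highest Bmpr2 level was 1.21 times the lowest in suprabasal epidermis, 1.17 times in upper follicle, 1.33 times in basal epidermis and 1.32 times in endothelium, but 1.73 times in hair matrix and 1.87 times in injury keratinocytes. For Bmpr1a it was 1.12 times in suprabasal epidermis and 1.23 times in basal epidermis, but 3.78 times in endothelium. Endothelial cells thus carried Bmpr2 at epithelial levels with little Bmpr1a, and held Acvrl1, the type I receptor known from endothelium, at 299 in AN-GelMA, 368 in GelMA and 263 in untreated.

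Id1, the best known BMP target, was highest in blood endothelium, at 457 CPM in AN-GelMA, 740 in GelMA and 526 in untreated, and in neutrophils, at 466 in AN-GelMA and 468 in GelMA. Injury keratinocytes had 152 in AN-GelMA, 464 in GelMA and 259 in untreated. The neutrophil class may not be pure. It also held Bmp7 at 121 in AN-GelMA and Bmpr1a at 234 in GelMA, and basal epidermis was the second-scoring class of 1 of its clusters. Id1 was low in fibroblasts, at 12.8 in AN-GelMA, 18.0 in GelMA and 19.5 in untreated. Id2, which Langerhans cells and innate lymphoid cells need for their development in the mouse, was the immune and pigment-cell member. It stood at 246 in AN-GelMA, 1202 in GelMA and 500.3 in untreated Langerhans cells, at 466 in AN-GelMA, 769 in GelMA and 410 in untreated T, NK or innate lymphoid cells, and at 1282 in GelMA melanocytes. Macrophages had 349.9 in AN-GelMA, 436 in GelMA and 391 in untreated. Id3 was shared by endothelium, pericytes or smooth muscle, the neural crest lineages, papilla, inner root sheath and hair matrix. It stood at 503 in AN-GelMA, 928 in GelMA and 714 in untreated endothelium. Pericytes or smooth muscle had 303 in AN-GelMA, 664 in GelMA and 234 in untreated. Melanocytes had 924 and papilla 605 in GelMA, the only library where these classes have a level. Schwann cells had 851 in GelMA and 399 in untreated, and inner root sheath 633 in GelMA and 278 in untreated. Hair matrix had 246 in AN-GelMA, 477 in GelMA and 329 in untreated. In GelMA the Id3 intervals of endothelium, melanocytes and Schwann cells overlapped, and endothelium ranked second under most alternatives.

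Inside the GelMA follicle, Id1 and Id3 were both high in the cells led by Krt84 and those led by Krt26. Id3 was highest in the inner root sheath cells led by Krt26 and Krt72, at 845 CPM, and in the unnamed cells led by Krt84, at 817, and lowest among the hair lineages in hair shaft, at 104. Id2 was highest in the matrix cells led by Krt32, at 425, and low in all inner root sheath groups, between 21.95 and 35.6. Id1 reached 517 in the Krt84 cells, 481 in the upper follicle cells led by Car6, and 382 in the Krt26 inner root sheath cells, which also had the highest Bmpr1a. The cells with the most Bmp4 were not those with the most Id1: the papilla had 138 CPM of Id1 and the Krt32 matrix cells had 189.

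**Figure D3:**
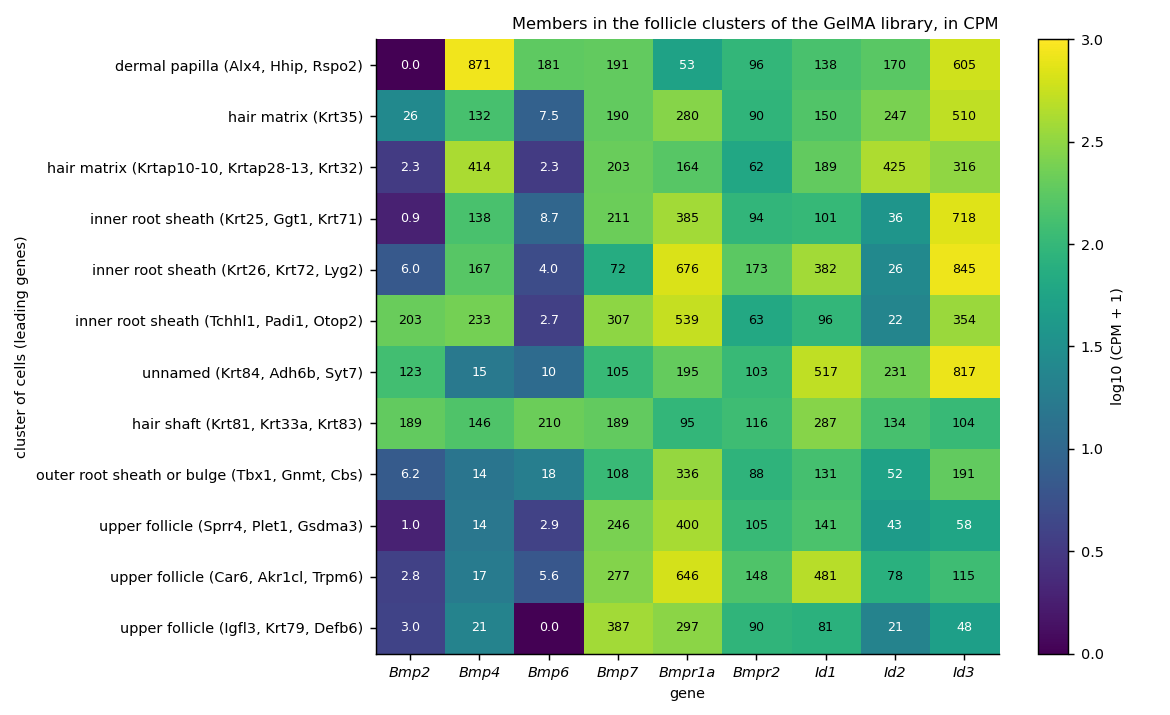
Levels of 9 genes in the follicle clusters of the GelMA library, named by class and leading genes; the number in each field is CPM and the colour is log10 of that value plus 1. Bmp2 stands at 203 in the Tchhl1 inner root sheath, 189 in hair shaft and 123 in the Krt84 cells, and at most 25.7 in the other follicle clusters, Bmp4 leads in the papilla (871) and Krt32 matrix (414), and Id3 in the Krt26 inner root sheath (845).

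The proximal promoters of the Id genes are shown because the Id transcripts are the readout of the pathway here and 3 of the 4 Id genes (Id2, Id3 and the further family member Id4) had an entry in the sequence table used. Each sequence is the 250 bases before the annotated start, 5′ to 3′ on the gene's strand, from RefSeq on GRCm38.p6, a different build from the GRCm39 of the deposited counts. Capitals mark GGCGCC, a palindrome among the GC-rich elements bound by Smad1 and Smad5, and GTCT or its reverse complement AGAC, the Smad-binding core.
Id2, chr12:25096093-25096342, minus strand: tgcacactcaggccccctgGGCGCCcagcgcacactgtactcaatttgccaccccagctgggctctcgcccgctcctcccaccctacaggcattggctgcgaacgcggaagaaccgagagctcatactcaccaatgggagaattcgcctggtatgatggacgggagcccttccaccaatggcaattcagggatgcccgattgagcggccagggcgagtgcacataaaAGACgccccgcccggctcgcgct
Id3, chr4:136143572-136143821, plus strand: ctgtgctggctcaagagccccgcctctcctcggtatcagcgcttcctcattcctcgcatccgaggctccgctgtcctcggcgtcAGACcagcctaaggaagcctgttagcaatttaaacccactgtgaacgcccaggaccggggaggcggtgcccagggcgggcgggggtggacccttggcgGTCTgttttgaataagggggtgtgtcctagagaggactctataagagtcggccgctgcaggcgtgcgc
Id4, chr13:48260866-48261115, plus strand: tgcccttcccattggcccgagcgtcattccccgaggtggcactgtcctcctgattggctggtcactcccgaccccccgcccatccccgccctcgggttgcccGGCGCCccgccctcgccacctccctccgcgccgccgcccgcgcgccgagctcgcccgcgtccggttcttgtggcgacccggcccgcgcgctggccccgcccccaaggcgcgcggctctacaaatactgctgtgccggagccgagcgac
GGCGCC occurred at 1 position in the Id2 window, 231 bases before the start, and at 1 in the Id4 window, 148 bases before it, and it was not in the Id3 window. GTCT or AGAC occurred in Id2 23 bases before the start, and in Id3 at 166 and 68 bases before it, and was not in the Id4 window. Searched on both strands over the 250 bases of 32851 promoters in the same table, GGCGCC was present in 9.59% and GTCT or AGAC in 82.9%, so that the second motif is in most promoters. The GC content was 62.8% in Id2, 62.8% in Id3 and 75.6% in Id4. A match describes these letters and is not a measured binding site.

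The first comparison set the neutrophil-loaded hydrogel against the hydrogel alone. The Id genes and Bmp4 were lower in AN-GelMA than in GelMA in many of the classes where they were measured, meaning at least 20 UMIs over the pair, and higher in none of them. Id1 was lower in 8 of 12 classes and higher in 0, Id2 lower in 6 of 12 and higher in 0, Id3 lower in 8 of 11 and higher in 0, and Bmp4 lower in 5 of 6 and higher in 0. The receptors did not share this: Bmpr1a was lower in 3 of 14 classes and higher in 2, and Bmpr2 lower in 1 of 11 and higher in 1. Bmp7 went the other way in 3 of 11 classes, with 2 lower. Over all 10 members and 15 classes, 39 of 85 gene and class pairs were lower and 7 were higher. The members' shares were 45.9% lower and 8.24% higher, against 19.3% lower and 14.8% higher of 115823 pairs over all genes. The 20 UMIs were summed over the pair, for members and all genes alike, so some pairs were admitted mainly by their GelMA count. Examples are Id1 in outer root sheath or bulge, with 3 UMIs in AN-GelMA and 210 in GelMA, and Id2 in endothelium, with 5 in AN-GelMA and 31 in GelMA. Nog in skeletal muscle, at 0 UMIs in AN-GelMA and 44 in GelMA, could not be counted as higher.

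In suprabasal epidermis, Id3 had 50 UMIs (13.1 CPM) in AN-GelMA and 285 (61.2) in GelMA, a log2 ratio of -2.23 (-2.69 to -1.79). Id1 had 125 UMIs (32.7 CPM) in AN-GelMA and 481 (103) in GelMA, a log2 ratio of -1.66 (-1.95 to -1.37). The class also had shares of cells with an Id3 UMI of 2.08% in AN-GelMA and 13.8% in GelMA, or 0.449% in AN-GelMA and 3.16% in GelMA with cells thinned to 500 UMIs, while macrophages had 0.998% in AN-GelMA and 1.99% in GelMA unthinned. Of 9 members measured there, Bmp2, Bmp4, Bmp6, Id1, Id2 and Id3 were lower and 0 were higher, against 25.2% of all 11417 genes measured there being past 1.5-fold in either direction. In basal epidermis, Bmp4 stood at 13.5 in AN-GelMA and 45.5 in GelMA (log2 ratio -1.75, -2.51 to -1.03), Id3 at 27.0 in AN-GelMA and 75.5 in GelMA (-1.48, -2.02 to -0.96) and Id1 at 36.0 in AN-GelMA and 63.5 in GelMA (-0.82, -1.32 to -0.32). Bmp7 was higher there, 215 in AN-GelMA against 142 in GelMA (0.59, 0.33 to 0.87), and 6 of 8 members were past 1.5-fold, against 22.1% of genes. The summed hair markers of these classes were 41.1 CPM in AN-GelMA and 1146 in GelMA suprabasal cells, and 78.3 in AN-GelMA and 1217 in GelMA basal cells. When cells of other classes holding any hair marker UMI were left out, the suprabasal ratio was -2.50 for Id3 and -1.5 for Id1, and that for Id2, -0.62 with all cells, was 0.47, with 40 UMIs left. In basal epidermis that recount put Bmp7 at 0.45 and Bmp2 at -0.044, both within 1.5-fold. With cells thinned to 500 UMIs, the Id3 ratio was -2.96 and the Id2 ratio was close to 0.

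In upper follicle, Id3 stood at 12.7 CPM in AN-GelMA, against 67.5 in GelMA (log2 ratio -2.41, -3.40 to -1.55), and Id1 at 56.3 in AN-GelMA and 199.7 in GelMA (-1.83, -2.27 to -1.41). The class was not the same mixture in both libraries. Cells led by Igfl3 and Krt79 made up 494 of 610 AN-GelMA cells and 169 of 862 GelMA cells, cells led by Sprr4 and Plet1 made up 115 AN-GelMA and 496 GelMA cells, and cells led by Car6 made up 1 AN-GelMA and 197 GelMA cells. Within the Igfl3 cells Id1 was lower in AN-GelMA (29.5 in AN-GelMA against 81.1 in GelMA, log2 ratio -1.46, -2.33 to -0.60), within the Sprr4 cells it was not (189 in AN-GelMA against 141 in GelMA, 0.42, -0.19 to 1.00), and the Car6 cells, with 481 CPM of Id1, were nearly absent from AN-GelMA. Bmp4 had 4 UMIs in AN-GelMA and 28 in GelMA upper follicle (log2 ratio -1.93), and without the cells holding a hair marker UMI only 5 UMIs were left and the sign turned. The hair marker sum was 42.5 CPM in AN-GelMA and 1261 in GelMA upper follicle. Of 7 members measured, 3 were lower and 0 higher, against 38.1% of genes past 1.5-fold.

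In blood endothelium all Id members were lower. Id3 had 187 UMIs (503 CPM) in AN-GelMA and 366 (928) in GelMA (log2 ratio -0.88, -1.14 to -0.62), and Id1 had 170 (457) in AN-GelMA and 292 (740) in GelMA (-0.69, -0.98 to -0.42). Id2 had 5 UMIs (13.5 CPM) in AN-GelMA and 31 (78.6) in GelMA (-2.55, -4.27 to -1.17). Inside the endothelial groups that could be compared, Id1 was lower in Selp-led cells, 211 in AN-GelMA and 503 in GelMA (-1.25, -1.98 to -0.56), and within 1.5-fold in Adgrl4-led cells, 734 in AN-GelMA and 1045 in GelMA (-0.51, -0.92 to -0.11). Id3 was likewise 382 in AN-GelMA and 794 in GelMA Selp-led cells, and 662 in AN-GelMA and 967 in GelMA Adgrl4-led cells. Of 6 members measured, Bmp6, Id1, Id2 and Id3 were lower and 0 were higher, against 30.1% of genes. Most Bmp6 UMIs of GelMA endothelium came from the Cd300lg-led cells, which numbered 106 in GelMA and 2 in AN-GelMA. The part of these Cd300lg-led cells in the Bmp6 ratio was not tested. The hair marker sum of this class was 18.8 CPM in AN-GelMA and 1176 in GelMA. The Id1 ratio fell within 1.5-fold with at least 1000 UMIs per cell (-0.39) and without cells holding a hair marker UMI (-0.55), where the Id3 ratio was -0.80. With cells thinned to 500 UMIs, the Id1 ratio moved the other way, to -1.14. Smad7, the inhibitory Smad that BMP and TGF-beta signals induce, was also lower, at 94.2 in AN-GelMA and 190.1 in GelMA (-1.01, -1.64 to -0.42).

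In hair matrix, Id2 had 7 UMIs (57.3 CPM) in AN-GelMA and 714 (277) in GelMA (log2 ratio -2.27, -3.59 to -1.22), and Id3 had 30 (246) in AN-GelMA and 1229 (477) in GelMA (-0.96, -1.53 to -0.44). Bmp4 was lower too, at 98.2 in AN-GelMA against 179 in GelMA (-0.87, -1.83 to -0.05), and reached -2.84 with cells thinned to 500 UMIs. Id1 was within 1.5-fold, at 147 in AN-GelMA and 157 in GelMA, and so was Bmpr1a, at 319 in AN-GelMA and 261 in GelMA. The hair marker sum of this class was 663 CPM in AN-GelMA, 6054 in GelMA and 3204 in untreated. Cells with any hair marker UMI were 23.8% of AN-GelMA, 90.3% of GelMA and 48.7% of untreated matrix cells. The matrix cells of the libraries thus differed in their own marker genes, and the part of this in any matrix ratio was not tested. Of 8 members, 4 were lower and 0 higher, against 45.1% of genes past 1.5-fold in this class, so the count is near the background. Most matrix cells, 79 of 80 in AN-GelMA and 1154 of 1321 in GelMA, were of the group led by Krt35, within which Id3 was 225 in AN-GelMA and 509.6 in GelMA. The group led by Krt32, in which Bmp4 and Id2 were highest within GelMA matrix, held 1 AN-GelMA and 167 GelMA cells. Its part in the class ratios of Bmp4 and Id2 was not tested. With cells thinned to 500 UMIs, the matrix Id3 ratio was -1.58 and, in outer root sheath or bulge, the Bmp7 ratio was 1.85. In outer root sheath or bulge, Id1 had 3 UMIs in AN-GelMA and 210 in GelMA (log2 ratio -2.15, -4.44 to -0.59), Bmpr1a was lower at 196 in AN-GelMA against 336 in GelMA, and Bmp7 higher at 186 in AN-GelMA against 108 in GelMA, with 4 of 7 members past 1.5-fold against 43.7% of genes.

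In fibroblasts 2 of 8 members were past 1.5-fold, against 27.8% of genes. Bmp4 was lower, with 37 UMIs (15.2 CPM) in AN-GelMA and 25 (37.5) in GelMA (log2 ratio -1.30, -2.07 to -0.51), and it was lower within the largest fibroblast group, led by Pi16, at 29.7 in AN-GelMA against 52.9 in GelMA. That group made up 1123 of 2025 AN-GelMA and 455 of 632 GelMA fibroblasts, and cells led by Nos2 and Saa3 numbered 355 in AN-GelMA and 17 in GelMA. The part of this mixture in the class ratio was not tested. The class ratio was -2.35 with at least 1000 UMIs per cell and -1.43 without cells holding a hair marker UMI. The hair marker sum over all fibroblasts was 17.7 CPM in AN-GelMA and 1158 in GelMA. Id3 was within 1.5-fold, at 110.3 in AN-GelMA and 159 in GelMA (-0.53, -0.86 to -0.19). Bmp6 was past 1.5-fold in the other direction on 24 UMIs in AN-GelMA and 4 in GelMA, and its sign turned when doublets were kept (-0.22). In injury keratinocytes, the Krt6a- and Mmp13-expressing cells of the wound edge, Id1 was 152 in AN-GelMA and 464 in GelMA (-1.61, -2.10 to -1.14). In Langerhans cells Id2 was 246 in AN-GelMA and 1202 in GelMA (-2.29, -2.87 to -1.75), and in macrophages Bmpr1a was 11.5 in AN-GelMA and 67.0 in GelMA (-2.54, -3.45 to -1.66), where the hair marker sums were 18.96 in AN-GelMA and 1120 in GelMA.

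**Figure D4:**
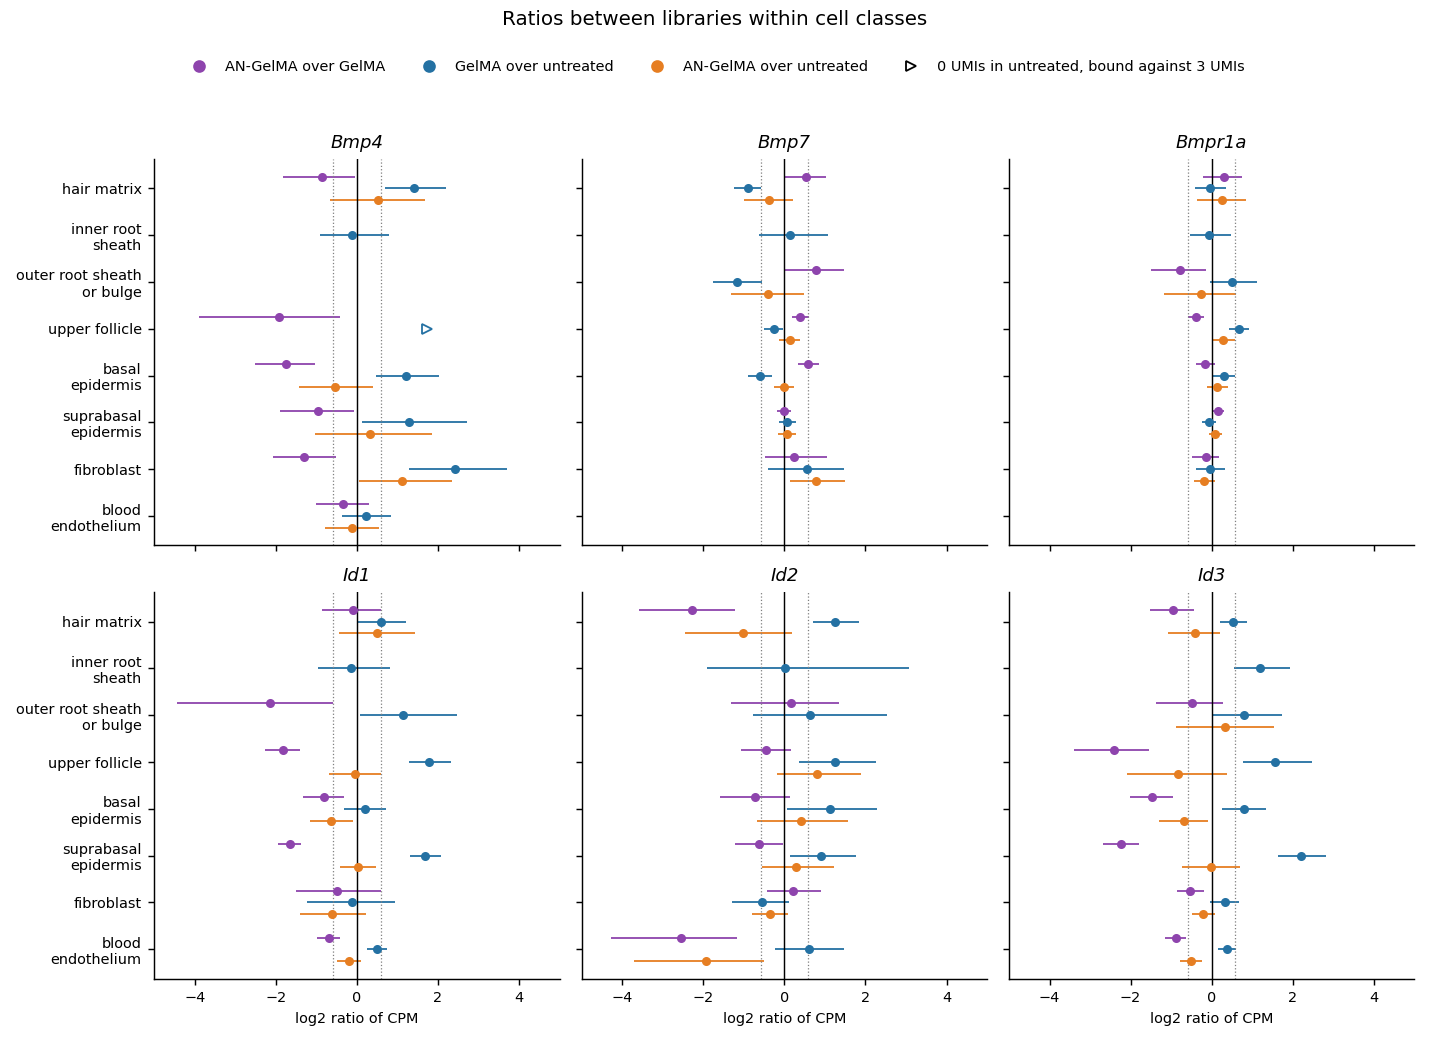
Log2 ratios of CPM between libraries for 6 genes in 8 classes, with a panel for each gene and a colour for each of the 3 comparisons; lines are 95% intervals from counting error, dotted lines mark 1.5-fold, and the open triangle is a bound against 0 UMIs. Id1, Id2, Id3 and Bmp4 lie mostly left of 0 for AN-GelMA over GelMA and right of 0 for GelMA over untreated, while most AN-GelMA over untreated ratios straddle 0.

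The second comparison set the empty hydrogel against the untreated wound. It shares the GelMA library with the first, so the comparisons are not independent, and a high GelMA value enters them with opposite signs. Over 16 classes, 40 of 91 member and class pairs were higher in GelMA than in untreated and 9 were lower, or 44.0% and 9.89%, against 18.9% higher and 15.1% lower of 119599 pairs over all genes. Id1 was higher in 7 of 12 classes, Id2 in 9 of 13, Id3 in 8 of 12 and Bmp4 in 6 of 8, with 0 lower for each. Bmp7 was lower in 5 of 12 classes and higher in 2. Without the cells holding a hair marker UMI, 19 of 59 pairs were higher and 7 were lower. In the first comparison that recount left 26 of 61 pairs lower and 8 higher. Shares over all genes are not given for this recount.

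In suprabasal epidermis, Id3 was 61.2 CPM in GelMA and 13.3 in untreated (log2 ratio 2.20, 1.64 to 2.82) and Id1 103 in GelMA and 32.3 in untreated (1.68, 1.31 to 2.06), and without hair marker cells the ratio was 2.14 for Id3 and 1.46 for Id1. In the same class Bmp6 had 43 UMIs in GelMA and 5 in untreated (1.96, 0.62 to 3.65). There, 6 of 9 members were higher and 0 lower, against 23.3% of genes past 1.5-fold. In upper follicle Id1 was 199.7 in GelMA and 58.5 in untreated (1.77, 1.27 to 2.31), Bmpr1a was 431 in GelMA and 271 in untreated (0.67, 0.42 to 0.92), and Bmp4 had 28 UMIs in GelMA and 0 in untreated, at least 3.32-fold higher in GelMA against the floor of 3 UMIs, with 5 of 7 members higher against 38.4% of genes. Of the untreated upper follicle cells, 271 of 336 were of the Igfl3 group, within which Id1 was 81.1 in GelMA and 44.8 in untreated (0.85, with an interval that reaches 0). Bmpr1a was within 1.5-fold in both groups that could be compared, 297 in GelMA and 257 in untreated Igfl3 cells (0.21, -0.18 to 0.60), and 400.2 in GelMA and 341 in untreated Sprr4 cells (0.23, -0.27 to 0.77). The Bmpr1a ratio was 0.28 with at least 1000 UMIs per cell. In basal epidermis 4 of 8 members were higher and Bmp7 was lower, against 21.4% of genes; Bmp4 was 45.5 in GelMA and 19.5 in untreated (1.22, 0.47 to 2.02). Without hair marker cells, the basal Bmp7 (-0.36) and Id3 (0.35) ratios fell within 1.5-fold and that of Bmp2 turned to -0.34, on 9 UMIs, while Bmp4 (1.72) and Id2 (1.11) stayed past it.

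Hair matrix held opposite directions among the ligands. Bmp4 was higher in GelMA, 179 in GelMA against 68.2 in untreated (log2 ratio 1.39, 0.70 to 2.19), whereas Bmp7 was lower, 193 in GelMA against 361 in untreated (-0.91, -1.23 to -0.57), and Bmp2 was lower, 21.7 in GelMA against 52.2 in untreated (-1.26, -2.15 to -0.27). Id2 was higher, 277 in GelMA against 116 in untreated (1.25, 0.72 to 1.84), and 2.79 with thinned cells. The Krt32-led cells, where Bmp4 and Id2 were highest within GelMA matrix, numbered 167 of 1321 in GelMA and 11 of 195 in untreated. The hair marker sum of the matrix class was 6054 CPM in GelMA and 3204 in untreated. Id1 was just past 1.5-fold at 0.59 and turned to -0.09 when no mitochondrial limit was set. In all, 6 of 8 matrix members were past 1.5-fold against 40.2% of genes. In inner root sheath only Id3 of 8 members was past it, 633 in GelMA and 278 in untreated (1.19, 0.54 to 1.92), against 47.6% of genes, and Bmp4, Bmp7 and Bmpr1a differed by at most 0.15 on the log2 scale there. The mixture of this class differed. Of 1122 GelMA cells, 531 were led by Krt25, 317 by Tchhl1 and 274 by Krt26. Of 58 untreated cells, 43 were led by Krt25, 4 by Tchhl1 and 11 by Krt26. In outer root sheath or bulge, Bmp7 was lower, 108 in GelMA against 245 in untreated (-1.18, -1.75 to -0.56), and Id1 higher, 131 in GelMA against 59.0 in untreated (1.14, 0.08 to 2.48, but 0.02 with finer clusters), with 5 of 7 members past 1.5-fold against 41.7% of genes. In fibroblasts only Bmp4 was past 1.5-fold of 7 members, with 25 UMIs in GelMA and 9 in untreated (2.42, 1.27 to 3.70), against 25.8% of genes. Pi16-led cells made up 455 of 632 GelMA and 534 of 1063 untreated fibroblasts, and Nos2-led cells numbered 17 in GelMA and 181 in untreated. In endothelium as a whole Id1 and Id3 stayed within 1.5-fold (0.49 and 0.38). In its Selp-led cells both were past it: Id1 was 503 in GelMA and 168 in untreated (1.59, 0.86 to 2.36), and Id3 was 794 in GelMA and 412 in untreated (0.95, 0.45 to 1.46). In its Adgrl4-led cells the ratios were 0.48 for Id1 and 0.12 for Id3. In the class, Bmp6 and Id2 were past it, 2 of 6 members against 29.1% of genes. The Bmp6 ratio was 1.08 and turned to -0.29 with at least 1000 UMIs per cell. The Cd300lg-led cells, which held most Bmp6 UMIs of GelMA endothelium, numbered 106 in GelMA and 2 in untreated.

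**Figure D5:**
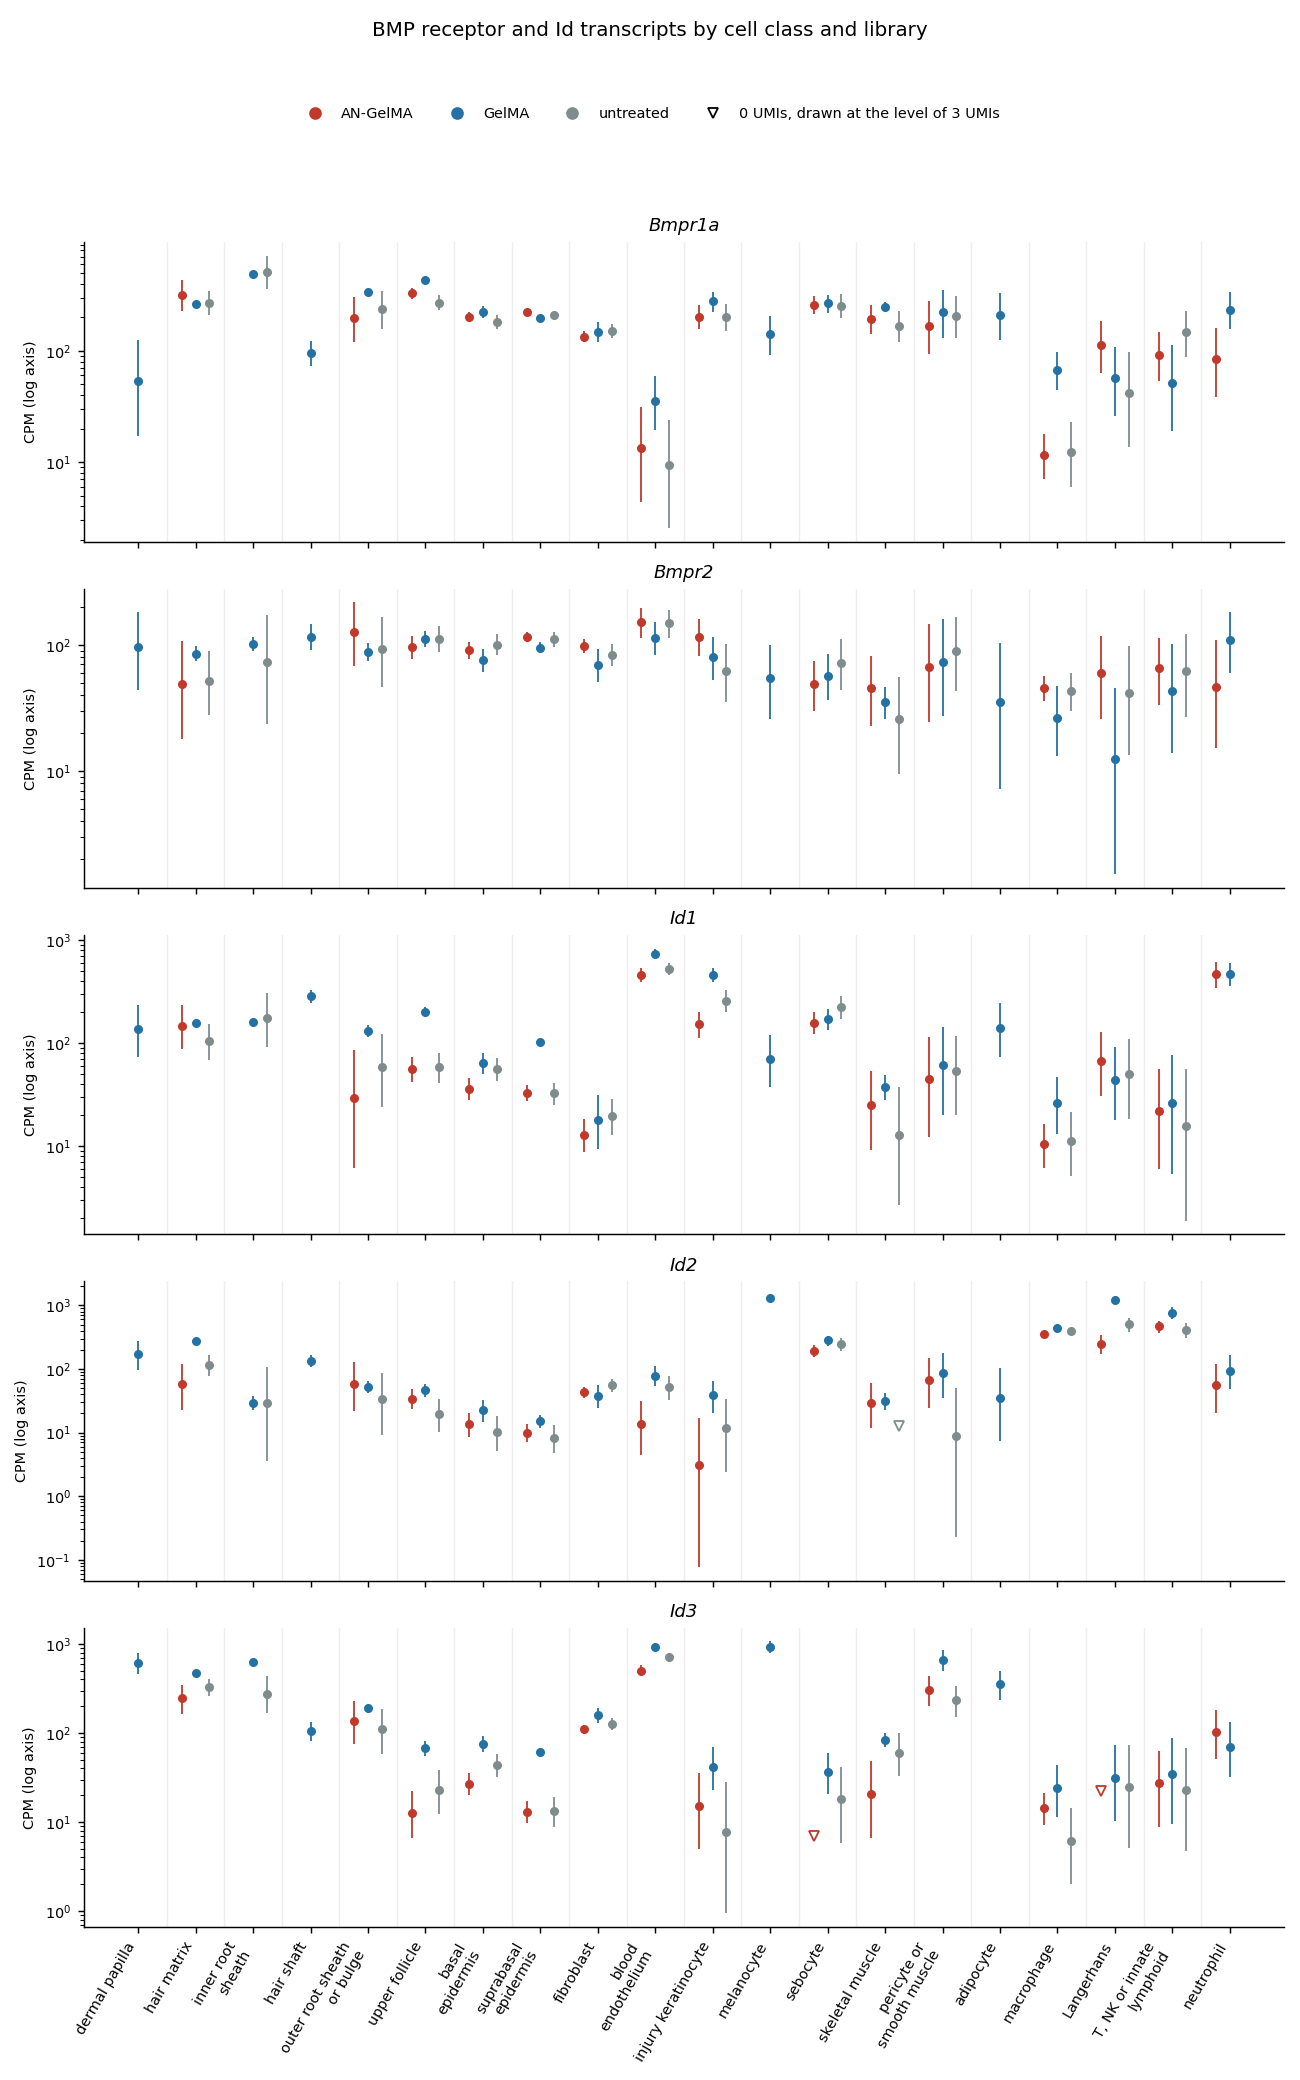
Levels of Bmpr1a, Bmpr2, Id1, Id2 and Id3 in every class with at least 50 cells, in CPM on a log axis, by library; lines are 95% Poisson intervals and open triangles mark 0 UMIs. Between libraries, the highest level is 1.12 times the lowest for Bmpr1a and 1.21 times for Bmpr2 in suprabasal epidermis, but 5.83 times for Bmpr1a in macrophages, while the GelMA level lies above the AN-GelMA level in 14 of 15 classes for Id1 (all but Langerhans cells) and in 14 of 15 for Id3 (all but neutrophils), often by less than the intervals.

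The third comparison left out the GelMA library. The AN-GelMA and untreated levels were close for most members: 8 of 70 pairs over 14 classes were higher in AN-GelMA and 10 were lower, or 11.4% and 14.3%, against 9.04% higher and 9.66% lower of 96277 pairs over all genes. In suprabasal epidermis Id1 was 32.7 in AN-GelMA and 32.3 in untreated (log2 ratio 0.02, -0.42 to 0.46), Id3 13.1 in AN-GelMA and 13.3 in untreated (-0.03, -0.72 to 0.70) and Bmpr1a 221 in AN-GelMA and 208 in untreated, and 1 of 9 members was past 1.5-fold against 9.63% of genes. In upper follicle Id1 was 56.3 in AN-GelMA and 58.5 in untreated (-0.05, -0.69 to 0.60), with 2 of 6 members past 1.5-fold against 14.7% of genes. Outer root sheath or bulge had 0 of 4 members past 1.5-fold, against 30.5% of genes, and hair matrix 1 of 6, against 30.4%. That 1 was Id2, at 57.3 in AN-GelMA (7 UMIs) and 116 in untreated (29), and its sign turned with cells thinned to 500 UMIs (0.29, on 6 UMIs).

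A few differences remained between these libraries. In endothelium Id2 had 5 UMIs (13.5 CPM) in AN-GelMA and 22 (51.7) in untreated (log2 ratio -1.94, -3.70 to -0.50). Id3 there was within 1.5-fold, 503 in AN-GelMA against 714 in untreated (-0.50, -0.78 to -0.24), as was Id1, 457 in AN-GelMA against 526 in untreated, and 1 of 6 members was past 1.5-fold against 19.3% of genes. In basal epidermis Id1 was lower, 36.0 in AN-GelMA against 55.8 in untreated (-0.63, -1.16 to -0.10), and Id3 lower, 27.0 in AN-GelMA against 43.7 in untreated (-0.69, -1.30 to -0.08), 2 of 7 members against 9.28% of genes. The Id3 ratio in that class turned to 0.33 with at least 1000 UMIs per cell and to 0.57 with finer clusters, so its direction depended on those settings. In fibroblasts Bmp4 was higher, 15.2 in AN-GelMA against 7.02 in untreated (1.12, 0.04 to 2.35), Bmp7 higher, 33.7 in AN-GelMA against 19.5 in untreated (0.79, 0.13 to 1.5), and Id1 lower, 12.8 in AN-GelMA against 19.5 in untreated (-0.61, -1.42 to 0.21), 3 of 8 members against 11.2% of genes; with doublets kept, the Bmp7 ratio was 0.03. In injury keratinocytes Id1 was 152 in AN-GelMA and 259 in untreated (-0.77, -1.33 to -0.22), and in Langerhans cells Id2 was 246 in AN-GelMA and 500.3 in untreated (-1.02, -1.68 to -0.39).

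A list of 44 further BMP pathway genes (10 ligands, 9 receptors and co-receptors, 14 secreted or membrane inhibitors and modulators, 6 Smads and 5 target genes) was counted in the same classes. For AN-GelMA over GelMA, 3 of 26 measured list genes were higher and 8 lower in suprabasal epidermis, against 7.81% higher and 17.4% lower of all genes measured there. In endothelium 0 of 16 were higher and 5 lower, against 13.2% higher and 16.9% lower of all genes. In fibroblasts 4 of 29 were higher and 10 lower, against 10.4% and 17.4%. In upper follicle 5 of 21 were higher and 5 lower, against 18.9% and 19.2%, and in hair matrix 7 of 23 higher and 8 lower, against 20.7% and 24.4%. Their median log2 ratio was -0.02 in suprabasal epidermis (-0.06 over all genes measured there), -0.29 in endothelium (-0.03), -0.15 in fibroblasts (-0.10), 0.03 in upper follicle (0.06) and 0.09 in hair matrix (-0.02). The members' median was -0.71 in suprabasal epidermis, -0.79 in endothelium, 0.03 in fibroblasts, -0.44 in upper follicle and -0.44 in hair matrix.

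Of the 5 target genes of that list, the measured ones lower in AN-GelMA than in GelMA were 4 of 4 in upper follicle (19.2% of all genes), 3 of 3 in basal epidermis (14.1%), 3 of 3 in outer root sheath or bulge (23.6%), 2 of 2 in fibroblasts (17.4%), 3 of 4 in hair matrix with Id4 higher (24.4%), and 2 of 4 in suprabasal epidermis with Id4 higher (17.4%). Several of these rest on few AN-GelMA UMIs, such as 2 of Msx2, 1 of Dlx3 and 1 of Atoh8 in upper follicle, and a gene that reaches 20 UMIs through GelMA alone cannot be counted as higher. In endothelium, Dlx3 was such a gene (0 UMIs in AN-GelMA and 24 in GelMA), while Id4 had 9 UMIs in AN-GelMA and 29 in GelMA, and Atoh8 6 in AN-GelMA and 34 in GelMA. Id4, the further Id family member, stood at 245 CPM in AN-GelMA, 1803 in GelMA and 835 in untreated outer root sheath or bulge, log2 ratios of -2.88 (-3.51 to -2.32) for AN-GelMA over GelMA and -1.77 (-2.47 to -1.13) for AN-GelMA over untreated. In upper follicle Id4 was 137 in AN-GelMA, 500.4 in GelMA and 146 in untreated, and in basal epidermis 72.1 in AN-GelMA, 172 in GelMA and 80.9 in untreated. The homeobox genes Msx2 and Dlx3, which act in shaft differentiation in the mouse, differed in hair matrix: Msx2 stood at 385 in AN-GelMA, 869 in GelMA and 614 in untreated, and Dlx3 at 188 in AN-GelMA, 509 in GelMA and 213 in untreated. In endothelium, Msx2 was at 0 UMIs in AN-GelMA, 48.2 CPM in GelMA and 2.35 in untreated, and in macrophages at 0.575 in AN-GelMA, 59.8 in GelMA and 11.1 in untreated. These are classes in which the hair markers were detected as well.

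Of the inhibitors and modulators on the list, AN-GelMA was higher than GelMA for 5 of 8 in hair matrix with 1 lower (20.7% higher and 24.4% lower of all genes), for 4 of 6 in upper follicle with 1 lower (18.9% and 19.2%) and for 3 of 7 in basal epidermis with 0 lower (8.01% and 14.1%), but for 1 of 8 in suprabasal epidermis with 2 lower (7.81% and 17.4%). Follistatin (Fst), which binds activins and some BMPs, was 237 in AN-GelMA, 52.5 in GelMA and 359 in untreated upper follicle, with log2 ratios of 2.17 (1.82 to 2.54) for AN-GelMA over GelMA and -2.77 (-3.14 to -2.41) for GelMA over untreated. In basal epidermis Fst was 589 in AN-GelMA, 303 in GelMA and 729 in untreated. Crim1, a membrane protein that tethers BMPs, was 97.7 in AN-GelMA, 39.8 in GelMA and 136 in untreated upper follicle. Sostdc1, a secreted inhibitor of BMP and Wnt ligands, was 50.2 in AN-GelMA, 21.5 in GelMA and 42.3 in untreated suprabasal epidermis. Smoc2, a matrix protein that modulates BMP signals, was 180.1 in AN-GelMA, 67.6 in GelMA and 161 in untreated hair matrix, yet 40.7 in AN-GelMA, 91.5 in GelMA and 55.4 in untreated fibroblasts. Among Smads, Smad7 was 19.6 in AN-GelMA and 41.2 in GelMA suprabasal epidermis (-1.07, -1.48 to -0.68).

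Across the 52 pairs of class and library with at least 50 cells, which share libraries, depth and hair marker background, the closest pair of members was Bmp4 and Id3, with Pearson's r of 0.59 on log2 levels, followed by Bmp6 and Bmpr2 at 0.52 and Bmp7 and Bmpr1a at 0.51. The most opposed were Bmpr2 and Id2, at -0.46. Among all genes with at least 200 UMIs, the pattern most like Bmp4 was that of Hunk (r = 0.76) and of Bambi (0.75), the BMP pseudoreceptor, and the third of Bmp2's nearest genes was another ligand, Bmp8a (0.70). The nearest to Bmp7 were Vangl2 (0.84), Hr (0.84, the hairless gene) and Tfap2a (0.83), to Bmpr1a Tead3 (0.79), to Bmp6 Cemip2 (0.73) and to Bmpr2 Mast4 (0.69). The nearest to Id1 was Hyal2 (0.69), to Id2 Arhgap9 (0.77) and to Id3 Ctps (0.76). These are descriptions over pairs that are not independent.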

How the data were processed

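The deposited gene matrices hold whole-number UMI counts per gene and cell, made with Cell Ranger 10.0.0 on GRCm39, per the file headers for the version and per the submitters' processing notes for the name and build; further steps by the authors are not stated in the labels. Each of the 3 groups is 1 library. All later steps were computed from these counts with scanpy 1.11.5, igraph 0.11.9, scikit-learn 1.9.0, numpy 2.4.6 and scipy 1.17.1.

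Cells needed at least 400 UMIs, 250 genes and at most 10% mitochondrial UMIs. Scrublet called 0 doublets in each library, so the 5% of cells with the highest score were removed per library. Cells were clustered on 2000 variable genes, without the 10 members and 44 other pathway genes, using 30 principal components, 15 neighbours and Leiden resolution 1 (0.5 for subdivision). Of 47 clusters, 42 were named from marker lists by a scoring rule set after the clusters were seen: a score of at least 1.8, at least 3 markers, and a margin over the next class of 0.5, or of 0.15 with at least 2 class markers among the 10 leading genes. A cluster whose 10 held more markers of a competing class stayed unnamed, and clusters needed 50 cells, or 20 after subdivision. These rebuilt classes may differ from the authors' own.

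UMIs were summed by class and library and divided by the class total. Levels carry exact Poisson intervals, shares exact Clopper-Pearson intervals and ratios exact conditional intervals, all at 95% and covering counting error only. A gene counted in a pair of libraries with at least 20 UMIs over both, and a gene at 0 was taken at 3 UMIs and counted only where that bound gave a direction. With 1 library per group no test was possible, and no p-value is given. The counting of genes past 1.5-fold was checked on simulated counts with known changes, which carry counting error only and say nothing of differences between mice.

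All members are named in the text. Pathway genes are named where they had up to the 3 largest ratios of a class and comparison with at least 20 UMIs in both libraries, and like-patterned genes are the 3 highest correlations on log2 levels with 10 added. The members and lists were chosen with earlier results of these data known. Alternatives were doublets kept, at least 1000 UMIs per cell, no mitochondrial limit, resolution 2, pathway genes used to cluster, thinning to 500 UMIs, 2 other scalings, at least 50 UMIs per pair, a 2-fold threshold and, added after seeing the data, another random start and removal of cells with a hair marker UMI from every class but the hair shaft, inner root sheath and matrix ones.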

Additional observations from a re-analysis of the deposited data

How the results depend on the processing

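The 70 ratios past 1.5-fold in the 10 main classes were recomputed under the alternatives, giving 658 values: 647 kept their sign, 11 reversed and 27 moved outside the original interval. No ratio reversed under either alternative scaling. The median-ratio scaling moved every class by less than 1.5-fold, so it could not reverse ratios chosen for being past 1.5-fold. The recount without hair marker cells leaves hair matrix and inner root sheath unchanged by construction. The 658 values include these fixed outcomes, so the number that kept their sign overstates how much was put at risk. The class with the highest level of a member was kept in 173 of 198 values. The cause of each change below was not tested, except that 1000 UMIs per cell, thinning, 50 UMIs per pair and 2-fold admit fewer cells, UMIs or pairs by construction.

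The number of measured pairs changed as well, so each count is given out of those measured, without the share over all genes. For AN-GelMA over GelMA, the 7 of 85 higher pairs became 4 of 94 with doublets kept and 3 of 56 with at least 1000 UMIs per cell. They became 3 of 64 with at least 50 UMIs per pair and 1 of 85 at 2-fold. The 39 of 85 lower pairs became 25 of 56 with 1000 UMIs and 22 of 85 at 2-fold. For GelMA over untreated, the 40 of 91 higher pairs became 18 of 49 with 1000 UMIs and 26 of 62 with thinned cells. They became 19 of 59 without cells holding a hair marker UMI and 25 of 65 with 50 UMIs per pair. The 9 of 91 lower became 3 of 49 with 1000 UMIs, 3 of 78 at resolution 2, 4 of 65 with 50 UMIs per pair and 5 of 91 at 2-fold. For AN-GelMA over untreated, the 8 of 70 higher became 3 of 40 with 1000 UMIs, 5 of 63 with pathway genes used to cluster and 4 of 39 with thinned cells. They became 5 of 62 without hair marker cells, 2 of 41 with 50 UMIs per pair and 5 of 70 at 2-fold. The 10 of 70 lower became 6 of 76 with doublets kept and 1 of 40 with 1000 UMIs. They became 4 of 39 with thinned cells, 5 of 41 with 50 UMIs per pair and 3 of 70 at 2-fold.

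Reversed log2 ratios for AN-GelMA over GelMA were Bmp4 in upper follicle (0.25) and Id2 in suprabasal epidermis (0.47) without hair marker cells, and Bmp6 in fibroblasts with doublets kept (-0.22). For GelMA over untreated they were Bmp2 in basal epidermis (-0.34) and Id2 in suprabasal epidermis (-0.033) without hair marker cells, Id1 in hair matrix with no mitochondrial limit (-0.087), Id2 in outer root sheath or bulge with doublets kept (-0.15), and Bmp6 in endothelium with 1000 UMIs (-0.29). For AN-GelMA over untreated they were Id2 in hair matrix with thinned cells (0.29) and Id3 in basal epidermis with 1000 UMIs (0.33) and at resolution 2 (0.57).

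Without hair marker cells, further ratios fell within 1.5-fold: for AN-GelMA over GelMA, Bmp6 in outer root sheath or bulge (-0.13), for GelMA over untreated, Id2 there (0.20), and for AN-GelMA over untreated, Id2 in upper follicle (0.36) and Id1 in fibroblasts (-0.37).

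Rescaling by the median ratio over genes with at least 20 UMIs in both libraries moved 16 pairs of class and comparison by over 0.1, from -0.33 (inner root sheath, GelMA over untreated) to 0.28 (hair matrix, AN-GelMA over GelMA). In upper follicle the median was 0.15 for AN-GelMA over GelMA and -0.21 for GelMA over untreated. No paired analysis was possible because the groups hold a single library each.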
